A study of Mus musculus with 2 samples.

Results

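Atf4, the transcription factor of the amino acid and integrated stress responses, was followed with 9 genes of its pathway in adult mouse liver. The 10 genes were Atf4, Asns, Ddit3, Trib3, Chac1, Sesn2, Psat1, Phgdh, Atf5 and Eif2ak3, out of 19938 genes named on the array. They were chosen by symbol, with earlier results of these same arrays known, and each was represented by the probe set (called a probe here) with the highest mean. All 10 had 1 probe that named them alone, so no choice between probes was needed. The knockout-labelled pool carried the genotype FHL2-/-, a targeted loss of the LIM-domain protein FHL2, and the other pool was wild-type. Each pool combined liver RNA of 3 male mice aged 10 to 11 weeks on a hybrid Black Swiss/129-SV/J background, taken from the left lobe and untreated as far as the labels state. Each pool went on 1 Affymetrix array. The design thus holds no replicates and allows no p-value, the spread between mice is hidden by pooling, and every difference is one between these pools.

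ATF4 is made mainly under stress. Kinases that sense unfolded protein, missing amino acids, lack of heme or double-stranded RNA phosphorylate the initiation factor eIF2α, which lowers general translation but favours translation of the Atf4 message past its upstream open reading frames. The amount of Atf4 RNA therefore reflects only part of the control of ATF4 protein. ATF4 pairs with C/EBP proteins and binds the C/EBP-ATF response element (CARE) of genes for amino acid synthesis, amino acid transport, feedback on the stress signal and cell death. In liver the response is known for adapting to protein-poor diets and to stress of the endoplasmic reticulum.

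The promoters are shown because that element is a known point of contact between ATF4 and its target genes. RefSeq promoters of build GRCm38.p6, spanning 250 bases before to 50 after the start of a gene, were matched for all 10 genes (12 promoters). The CARE core TGATGNAA, searched on both strands, was found for 3 of the 10, namely Asns, Chac1 and Trib3. It is held by 1304 of all 32851 promoters, or 3.97%. The promoter of Inhbe, a further ATF4 target described below, is printed with these 3 because its RNA differed between the pools in the direction opposite to that of Asns. Capitals mark the CARE core and, in Asns, also the second element GTTACA. The promoters lie at chr6:7693160-7693459 (minus strand) for Asns, chr2:119350992-119351291 (plus strand) for Chac1, chr2:152344011-152344310 (minus strand) for Trib3 and chr10:127351799-127352098 (minus strand) for Inhbe.
Asns: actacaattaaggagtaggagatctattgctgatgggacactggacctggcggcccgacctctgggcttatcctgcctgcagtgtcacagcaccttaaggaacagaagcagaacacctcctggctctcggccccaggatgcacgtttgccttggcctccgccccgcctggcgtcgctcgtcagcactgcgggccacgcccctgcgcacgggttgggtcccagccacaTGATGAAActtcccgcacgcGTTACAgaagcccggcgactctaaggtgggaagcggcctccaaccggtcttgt
Chac1: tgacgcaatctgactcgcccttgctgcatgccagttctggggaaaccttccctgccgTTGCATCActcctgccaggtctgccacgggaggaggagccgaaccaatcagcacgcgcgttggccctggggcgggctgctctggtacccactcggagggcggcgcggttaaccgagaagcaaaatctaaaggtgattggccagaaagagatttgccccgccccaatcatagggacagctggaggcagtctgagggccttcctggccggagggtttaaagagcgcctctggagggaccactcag
Trib3: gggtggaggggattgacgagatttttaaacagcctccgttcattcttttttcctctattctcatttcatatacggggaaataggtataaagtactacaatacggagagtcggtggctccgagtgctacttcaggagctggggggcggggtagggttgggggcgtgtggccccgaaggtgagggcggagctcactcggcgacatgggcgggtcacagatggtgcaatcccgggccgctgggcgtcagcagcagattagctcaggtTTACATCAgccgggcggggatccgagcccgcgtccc
Inhbe: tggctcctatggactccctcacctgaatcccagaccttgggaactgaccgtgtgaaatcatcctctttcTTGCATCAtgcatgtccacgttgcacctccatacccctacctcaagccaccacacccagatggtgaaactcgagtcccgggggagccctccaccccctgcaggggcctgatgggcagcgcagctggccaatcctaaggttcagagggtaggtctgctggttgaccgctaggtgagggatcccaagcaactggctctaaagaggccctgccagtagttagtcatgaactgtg

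In Asns the core reads TGATGAAA and begins 23 bases before the gene's start. In the human gene such an element, nutrient-sensing response element 1, works together with a downstream GTTACA, called element 2. The mouse promoter holds GTTACA further downstream, where it crosses the start. The spaced pair, TGATGNAA followed after 12 further bases by GTTACA, was present in 1 of the 32851 promoters on either strand, and that promoter was Asns. The letters and spacing searched were those of the Asns elements, so a match in Asns was fixed in advance. The search shows only that no other promoter held the same pair. The pair contains the CARE core, and GTTACA alone was present in 8.25% of promoters. In Chac1 and Inhbe the core lies on the opposite strand as TGATGCAA, beginning 193 and 181 bases before the start, and in Trib3 it reads TGATGTAA on the opposite strand, just downstream of the start. The endoplasmic reticulum stress element, CCAAT and CCACG with 9 bases between them, had no match in the 12 promoters and was present in 0.119% of all. A match is a run of letters and does not show binding. Bases outside this window and other spellings of the element were not searched, so no match does not show that a gene lacks it.

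The array values are log2 signals deposited by the authors, and a difference is the knockout-labelled value minus the wild-type value. The array medians were 5.71 in the knockout-labelled pool and 5.76 in the wild-type pool. Genes were counted when the mean of both arrays reached 5.44, the 40th percentile of probes naming 1 gene, which kept 11924 genes with a median difference of 0.04. Probes of the same gene differed with an SD of 0.143 over 660 genes, which is the only repeat measure available and covers neither animals nor hybridisations. Fhl2 itself had 5.33 in the knockout-labelled pool and 5.30 in the wild-type pool, both under the filter. Which exons the allele lacks is not stated in the labels. This dim probe thus does not check the genotype, and the pool is named by its label. The hepatocyte markers were high in both pools, with Alb, the main plasma protein, at 13.7 in each. Their largest differences were 0.53 for G6pc and 0.42 for Pck1, both enzymes of gluconeogenesis, and 0.15 for the transcription factor gene Hnf4a. All 12 of these markers passed the filter, and their median difference was 0.01, or -0.0075 after removal of the trend on level.

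Asns had the lowest and Atf4 the highest difference of the 10 genes. Of the 10 genes, 8 passed the level filter and 2, Psat1 and Phgdh, did not. Of the 10, 0 were at least 1.5-fold higher and 1, Asns, was at least 1.5-fold lower. Among all 11924 genes past the filter, 0.621% were at least 1.5-fold higher and 0.335% at least 1.5-fold lower, or 0.956% in either direction. The genes were chosen on this same contrast, so nothing is read from that count. Setting both arrays to a common median moved the split of all genes from 74 higher and 40 lower to 90 higher and 30 lower. The differences of the 10 genes ran from -0.85 to 0.46, and 7 of the 10 lay within 0.2 of 0, as did 74.8% of all genes past the filter. The 8 that passed the filter had a median of 0.03, against 0.04 for all genes past it, and that 0.03 turned to -0.015 after removal of the trend on level.

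**Figure D1:**
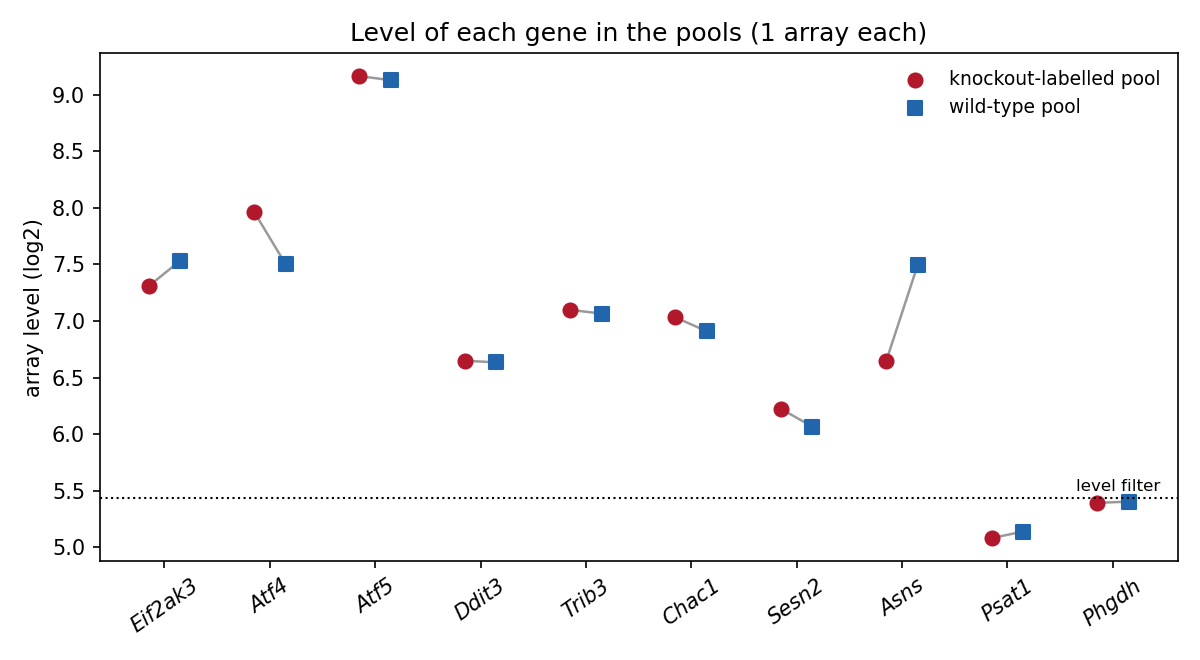
Array level (log2, vertical axis) of each of the 10 genes in the knockout-labelled pool (red circles) and the wild-type pool (blue squares), 1 array each, with a dotted line at the level filter of 5.44. Asns is lower and Atf4 higher in the knockout-labelled pool, the other pairs lie closer together, and Psat1 and Phgdh sit under the line in both pools.

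Eif2ak3 encodes PERK, the eIF2α kinase of the endoplasmic reticulum that senses unfolded protein. Its level was 7.31 in the knockout-labelled pool and 7.53 in the wild-type pool, a difference of -0.23. That is larger than the SD between probes but within the central 95% of the 1000 genes of nearest level, which ran from -0.29 to 0.39. The other eIF2α kinases were closer to 0, at 0.08 for Eif2ak4 (GCN2, the sensor of missing amino acids), 0.06 for Eif2ak1 (HRI, the heme sensor) and 0.03 for Eif2ak2 (PKR, the sensor of double-stranded RNA).

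Atf4 was at 7.97 in the knockout-labelled pool and 7.50 in the wild-type pool. The difference of 0.46 is a 1.38-fold higher value, short of 1.5-fold. It lay above the central range of the 1000 genes of nearest level, whose upper end was 0.38. Of the 11924 genes past the filter, 166 (1.39%), Atf4 among them, were at least as much higher. The difference was 0.51 after the shift to a common median and 0.40 after removal of the trend on level.

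Atf5 is a related basic leucine zipper factor whose message is also translated under eIF2α phosphorylation, and ATF4 and CHOP activate its gene. It had 9.16 in the knockout-labelled pool and 9.13 in the wild-type pool, a difference of 0.04 that turned to -0.01 after removal of the trend on level. Ddit3 encodes CHOP, the factor induced by ATF4 that carries prolonged stress towards cell death. It had 6.65 in the knockout-labelled pool and 6.63 in the wild-type pool, a difference of 0.01, or -0.02 after that removal. Both differences are smaller than the SD between probes, and no direction is given for either gene.

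The feedback and redox targets lay between 0.03 and 0.16. Trib3, a pseudokinase that binds ATF4 and CHOP and restrains them, was at 7.10 in the knockout-labelled pool and 7.07 in the wild-type pool. Its difference of 0.03 turned to -0.02 after removal of the trend on level. Chac1, a cytosolic enzyme that breaks down glutathione, was at 7.03 in the knockout-labelled pool and 6.91 in the wild-type pool, a difference of 0.12. Sesn2, the leucine-binding sestrin that restrains the growth kinase complex mTORC1, was at 6.22 in the knockout-labelled pool and 6.07 in the wild-type pool. Its difference of 0.16 was slightly above the SD between probes and well inside the range of genes of nearest level, -0.44 to 0.46. In both Trib3 and Chac1, which hold the CARE core as Asns does, the difference was under the SD between probes.

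Among the amino acid synthesis genes, Asns had a larger difference than Psat1 and Phgdh. Asns makes asparagine from aspartate and glutamine. It was at 6.64 in the knockout-labelled pool and 7.50 in the wild-type pool, a difference of -0.85, or 1.81-fold lower. Genes of nearest level had a central range of -0.37 to 0.43, and 8 of the 11924 genes past the filter, Asns among them, were as low or lower. Over the alternative scalings the difference ran from -0.91 to -0.81. Atf4 and Asns therefore lay 1.32 apart on the log2 scale of differences.

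Phgdh and Psat1 catalyse successive steps from a glycolytic intermediate towards serine. Phgdh had 5.39 in the knockout-labelled pool and 5.40 in the wild-type pool, a difference of -0.01. Scaled to a common median it was 0.03, and with the trend on level removed 0.04. A further probe named both Phgdh and the gene model Gm6756, so it is not assigned to either. It had 5.55 in the knockout-labelled pool and 5.48 in the wild-type pool. Psat1 had 5.08 in the knockout-labelled pool and 5.14 in the wild-type pool, a difference of -0.06. Both genes lie under the level filter, where a difference could be compressed, and the table holds no detection call. Psph, which completes serine synthesis, did pass the filter and had a difference of -0.12.

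**Figure D2:**
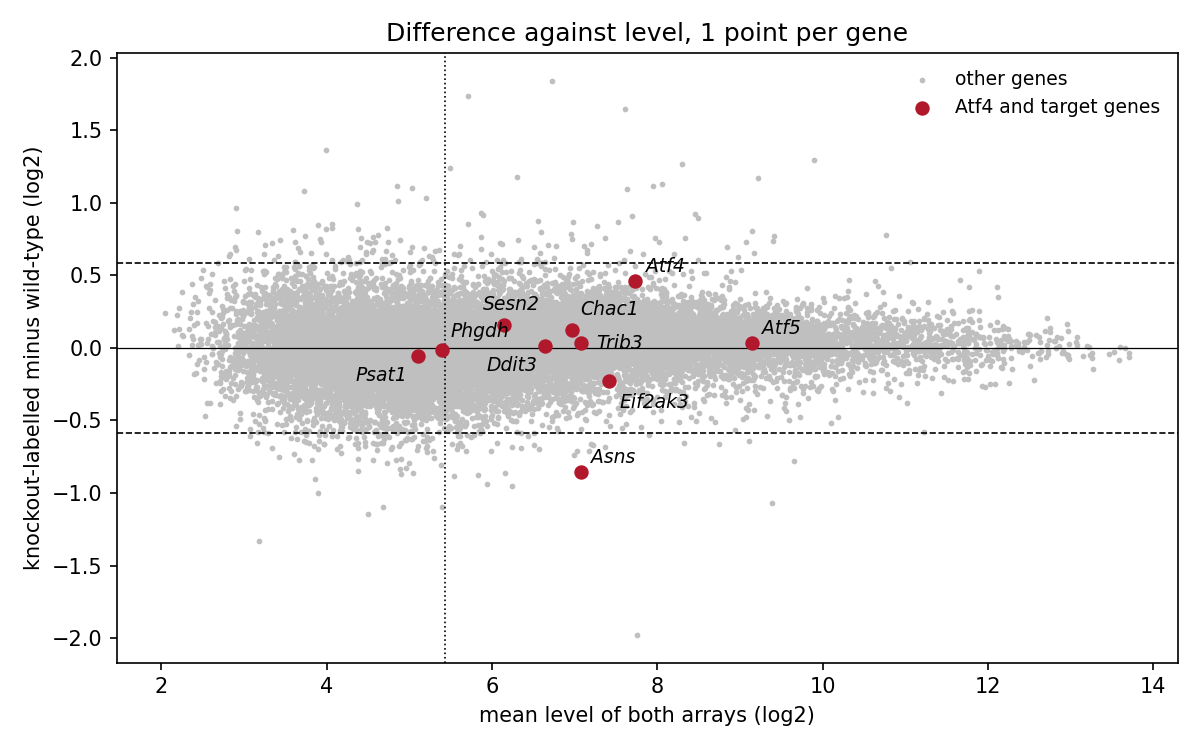
Difference between the pools (knockout-labelled minus wild-type, log2, vertical axis) against the mean level of both arrays (log2, horizontal axis), 1 point per gene, with the 10 genes in red. Dashed lines mark 1.5-fold and the dotted line the level filter; Asns lies below the lower dashed line and Atf4 near the upper edge of the grey cloud, under the upper dashed line.

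Further genes of the pathway were taken from 11 lists, which together held 190 genes past the filter besides the 10. Of these 190, 2 were at least 1.5-fold higher (Inhbe and Got1) and 3 at least 1.5-fold lower (Creld2, Sdf2l1 and Syvn1). Among all genes past the filter, 0.621% were at least 1.5-fold higher and 0.335% at least 1.5-fold lower. The median difference of the 190 was 0.01, below the 0.04 of all genes past the filter. The lists share members and were written with earlier results of these arrays known.

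Of 30 other ATF4 target genes past the filter, 1 was at least 1.5-fold higher, 0 were as much lower, and 24 were above 0, with a median of 0.09. Of all genes past the filter, 59.5% were above 0, 0.621% were at least 1.5-fold higher and 0.335% at least 1.5-fold lower. Inhbe, which encodes the activin βE subunit secreted by liver, had 8.51 in the knockout-labelled pool and 7.39 in the wild-type pool, 2.17-fold higher. Ddit4, which encodes the mTORC1 inhibitor REDD1, had 6.79 in the knockout-labelled pool and 6.37 in the wild-type pool, a difference of 0.42. Cth, the enzyme that releases cysteine from cystathionine, was at 0.25, and Slc3a2, the shared heavy chain of several amino acid exchangers, at -0.17. Fgf21, the liver hormone of amino acid and fasting stress, and Atf3, a stress-induced repressor, were under the filter at -0.32 each.

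Promoters were matched for 31 of the 37 measured genes of that list, and 8 of the 31 held the CARE core. The 5 of these 8 that passed the filter were Inhbe at 1.12, Vldlr at 0.22, Herpud1 at 0.20, Nupr1 at 0.01 and Jdp2 at -0.16. Those 5 had a median of 0.20. The rest of the 8, all under the filter, were Fgf21 and Atf3 at -0.32 each and Slc7a11 at -0.07. Vldlr is a lipoprotein receptor, Herpud1 serves degradation at the endoplasmic reticulum, Nupr1 is a stress-induced chromatin protein and Jdp2 a repressor of the AP-1 family. With Asns, Chac1 and Trib3 added, the genes with the core past the filter ran from -0.85 to 1.12. Asns and Inhbe alone set those ends, and the others with the core past the filter ran from -0.16 to 0.22. The 20 genes of the list past the filter with no match ran from -0.17 to 0.42, with a median of 0.09, and the 5 genes described here with no match from -0.23 to 0.46. These ranges describe 1 pair of arrays and were not tested. The genes were chosen with earlier results of those arrays known, so nothing is read from the widths of the ranges.

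**Figure D3:**
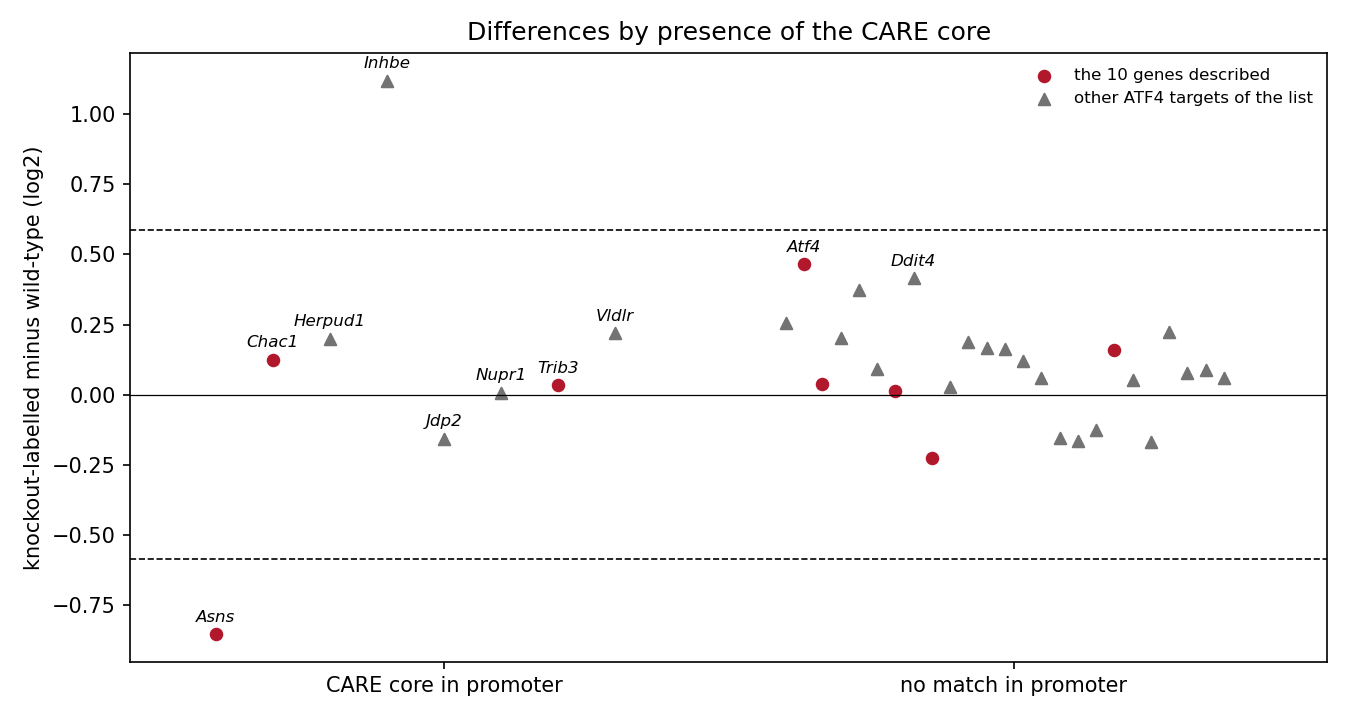
Difference between the pools (knockout-labelled minus wild-type, log2) for ATF4-related genes past the level filter, split by whether the RefSeq promoter holds the CARE core. Red circles are the genes described here and grey triangles the other ATF4 targets of the list. Genes run in alphabetical order within each side, and dashed lines mark 1.5-fold. Inhbe and Asns, both with the core, are the points beyond the lines. The other points with the core lie from -0.16 to 0.22.

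Factors that pair with ATF4 or regulate it were mostly above 0. Of 18 past the filter, 16 were above 0, where 59.5% of all genes past the filter were above. Of the 18, 0 reached 1.5-fold in either direction, beside 0.956% of all genes past the filter, and the median was 0.16. Jun, a subunit of AP-1, had 7.33 in the knockout-labelled pool and 6.78 in the wild-type pool, a difference of 0.55 that reached 1.5-fold after the common median shift. Cebpb, an ATF4 partner and target, was at 0.37, and Trib1, a relative of Trib3 that promotes breakdown of C/EBP proteins, at 0.32. Those of the 18 below 0 were Junb, also a subunit of AP-1, at -0.31 and Jdp2 at -0.16. The list of eIF2α kinases, phosphatase subunits and the exchange factor eIF2B had 0 of 17 past 1.5-fold, beside the same 0.956% of all genes. Its median was -0.01, or 0.03 after the common median shift. Its leading members were Eif2s2, a subunit of eIF2, at -0.19, Dnajc3, a chaperone known as an inhibitor of eIF2α kinases, at -0.19, and Ppp1r15a, the inducible phosphatase subunit GADD34, at -0.16.

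Amino acid supply was read from enzymes, transporters and tRNA synthetases. Of 17 synthesis enzymes past the filter, 1 was at least 1.5-fold higher and 0 lower, beside 0.621% and 0.335% of all genes. The enzymes had a median of 0.06. The gene past 1.5-fold was Got1, the cytosolic aminotransferase that interconverts aspartate, the substrate of asparagine synthetase, and glutamate. It had 11.4 in the knockout-labelled pool and 10.8 in the wild-type pool, 1.51-fold higher, and it fell short of 1.5-fold after removal of the trend on level. Of 22 transporters past the filter, 0 reached 1.5-fold in either direction and the median was 0.04, or -0.0016 after that removal. Slc7a2, a carrier of cationic amino acids, was at 0.47, Slc38a2, a carrier of small neutral amino acids induced by amino acid lack, at 0.41, and Slc43a1, a carrier of large neutral ones, at 0.34.

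The list of cytosolic aminoacyl-tRNA synthetases, many of which are ATF4 targets, also held Aimp1, Aimp2, Eef1e1 and the tRNA export gene Xpot. It had 0 of 23 genes past 1.5-fold in either direction, beside 0.956% of all genes past the filter. That share also applies to the lists that follow here, and with so few genes nothing is read from a count of 0. The median of the synthetase list was 0.04, or -0.03 after removal of the trend on level. The largest differences were -0.27 for Yars, the tyrosine enzyme, -0.21 for Wars, the tryptophan enzyme, and 0.19 for Eef1e1, a protein of the multisynthetase complex. Sestrins and the amino acid sensors of mTORC1 had 0 of 26 past 1.5-fold and a median of -0.0044, or 0.04 after the common median shift. The relatives of Sesn2 were at -0.01 for Sesn1 and -0.02 for Sesn3, while Nprl3, a subunit of the complex that restrains mTORC1 when amino acids are scarce, was at 0.35 and Castor2, from a family of arginine sensors, at -0.34. Of 10 glutathione genes past the filter 0 reached 1.5-fold, and their median of 0.03 turned to -0.0025 after removal of the trend on level. Chac2, the relative of Chac1, was at -0.02, Gss, which makes glutathione, at -0.23, and Ggt6, of the family that breaks it down outside cells, at 0.15.

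CHOP target genes lay mostly below 0. Of 7 past the filter, 5 were below 0 and 2 above, where 59.5% of all genes past the filter were above. Of the 7, 0 reached 1.5-fold in either direction, beside 0.956% of all genes past the filter, and the median was -0.25. Dnajb9, a chaperone cofactor of the endoplasmic reticulum, had 9.32 in the knockout-labelled pool and 9.74 in the wild-type pool, a difference of -0.42. It is also counted in the list of the IRE1 and ATF6 branches below. Pmaip1 and Bbc3, which encode the cell death proteins NOXA and PUMA and are also p53 targets, were at -0.35 and -0.31. Genes of mitochondrial stress, another route to ATF4, had 0 of 9 past 1.5-fold, beside the same 0.956% of all genes. Their median was 0.0049, or -0.04 after removal of the trend on level. Oma1, the protease that starts this signal in human cells, was at 0.20, Hspe1, a mitochondrial chaperonin, at -0.14, and Clpp, a mitochondrial protease, at 0.09.

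The IRE1 and ATF6 branches of the unfolded protein response, which run beside PERK, had a median of -0.20, with 29 of 36 genes below 0 and 7 above, where 59.5% of all genes past the filter were above. Of the 36, 3 were at least 1.5-fold lower and 0 as much higher, beside 0.335% and 0.621% of all genes. Removal of the trend on level brought the number past 1.5-fold to 4. Creld2, a secreted protein induced by impaired folding, had 8.86 in the knockout-labelled pool and 9.92 in the wild-type pool, 2.10-fold lower. Sdf2l1, a chaperone cofactor, was 1.58-fold lower, with 8.42 in the knockout-labelled pool and 9.08 in the wild-type pool. Syvn1, the ubiquitin ligase HRD1, was 1.56-fold lower, with 8.79 in the knockout-labelled pool and 9.43 in the wild-type pool. The median of the 8 ATF4 pathway genes, 0.03, lay nearer to that of all genes, and whether the branches differ from them was not tested.

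**Figure D4:**
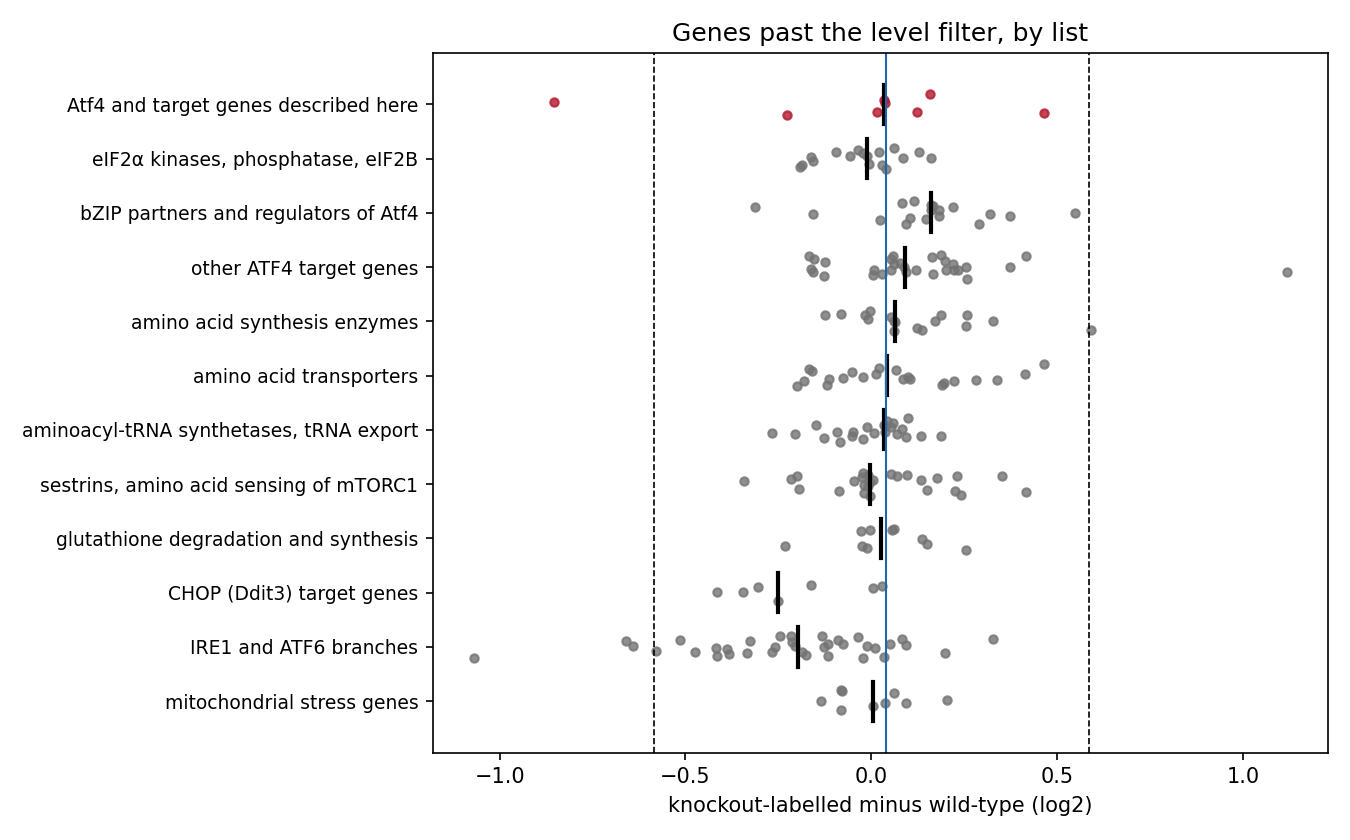
Differences between the pools (knockout-labelled minus wild-type, log2, horizontal axis) of the genes past the level filter, 1 row per list, with the genes described here in red and each row's median as a black bar. The blue line is the median of all genes past the filter (0.04) and dashed lines mark 1.5-fold. The rows for CHOP targets and for the IRE1 and ATF6 branches, which share Dnajb9, have their medians farthest to the left, at -0.25 and -0.20.

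Markers of other cells were read beside these results, since in bulk tissue fewer cells of a type and less RNA per cell cannot be told apart. Exocrine pancreas, a tissue rich in Asns, can contaminate a liver sample. Its 12 measured markers had levels from 4.26 to 7.22 in the knockout-labelled pool and from 4.10 to 7.30 in the wild-type pool. Of these 12, 4 passed the filter. Of the 4, 1 was above 0 and 3 below, with a median of -0.14. The largest differences were -0.29 for the elastase gene Cela3b, 0.25 for the chymotrypsinogen gene Ctrb1 and -0.20 for the elastase gene Cela2a. Kupffer cell and macrophage markers had 12 of 14 below 0, where 59.5% of all genes past the filter were above. The median of these markers was -0.19. Their levels ran from 5.72 to 9.05 in the knockout-labelled pool and from 6.08 to 9.27 in the wild-type pool. The largest differences were -0.40 for Adgre1, a receptor of the macrophage surface, -0.38 for the scavenger receptor gene Marco and -0.36 for the lysozyme gene Lyz2. The part of either cell type in the Asns difference was not tested.

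Sinusoidal endothelial markers had 10 of 12 above 0, where 59.5% of all genes past the filter were above. The endothelial median was 0.12, led by the receptor gene Gpr182 at 0.50. Stellate cell markers had 7 of 11 below 0 and a median of -0.04. Bile duct, lymphocyte, and blood and neutrophil markers had 3, 4 and 2 genes past the filter. None of these 5 lists held a gene past 1.5-fold in either direction, beside 0.956% of all genes past the filter.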

How the data were processed

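Liver RNA of 2 pools was measured on 1 Affymetrix array each, from 300 ng of total RNA by the GeneChip WT kits, per the labels' protocols. The deposited table gives 1 log2 value per probe set and array. Affymetrix Expression Console 1.0, RMA and Partek 6.4 are named, per the submitters' processing notes, with no order or role. The log2 scale is read from the values, which are not centred on 0. Of program settings and genome build, neither is given in the sources used here. RMA, where it was used, can compress differences of dim transcripts, which was not tested.

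Names came from the platform annotation, in which 21789 of 28853 probes have 1 gene, 1621 several and 5443 none. Of the 21789, 21698 matched the GRCm38.p6 gene table by Entrez identifier, and 0 symbols differed. Differences were taken with no further scaling, in Python 3.11.15 with pandas 2.3.3 and statsmodels 0.14.6. With 1 array a group there was no test, and precision is limited by the number of arrays. Steps were tested on simulated data. Alternatives were a common median, lowess removal of the trend on level (span 0.3), the mean of probes, no filter, and a filter at the 60th percentile.

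The genes and lists were chosen with earlier results of these data known. Named from each of the 11 pathway lists are the genes past the filter and 1.5-fold, or else the 3 with the largest differences. Other genes were named after their values were seen.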

Additional observations from a re-analysis of the deposited data

How the results depend on the processing

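Under the common median shift and the lowess removal, none of the 10 differences moved by as much as 0.143, the SD between probes. The shift between the array medians, -0.041, is the same for every gene and could not reach 0.143. Lowess subtracts a smooth trend on level. Neither step thus measures how repeatable the 10 differences are. Each of the 10 genes has 1 probe, so the mean of probes could not move them and no per-probe range exists. Signs turned for Phgdh under both, and for Ddit3, Trib3 and Atf5 under lowess. Without the level filter the counts of all genes past 1.5-fold were 153 higher and 133 lower, and at the 60th percentile 41 higher and 14 lower, since other numbers of genes are counted. The count past 1.5-fold became 1 for the partners of Atf4 after the common median shift, which moves every gene alike, and 0 for synthesis enzymes after lowess. At the 60th percentile the bile duct median was -0.108 and that of blood and neutrophil markers 0.293, and without the filter the blood and neutrophil median was -0.0903. No paired analysis was possible because each group has 1 array, which also means that no replicate could be left out.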
